A study of Mus musculus with 2 samples.

Results

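The 10 genes of intracellular lipid carriers listed next were examined in mouse liver: the fatty acid binding protein genes Fabp1, Fabp2, Fabp3, Fabp4, Fabp5 and Fabp7, the acyl-CoA binding protein gene Dbi, and the acyl-CoA binding domain genes Acbd3, Acbd4 and Acbd5. They were chosen by gene symbol, as all probe sets that the platform annotation gives to a listed gene, and these were 24 probe sets of 10 genes among 34945 probe sets with a single symbol (18193 genes). Livers came from 8-week-old male 129SvEJ mice, either wild type or pparalpha -/- (Ppara-null), and every mouse of both genotypes ate chow with 0.2% fenofibrate for 7 days. For each genotype, RNA from 3 mice was combined and put on 1 array, so each value below is a single measurement of a pool. No array of mice without the drug was analysed here, and the contrast joins any difference between the genotypes that exists without fenofibrate with any difference in their response to it.

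Long-chain fatty acids and their acyl-CoA esters are poorly soluble and act as detergents, and cells keep them bound to small carrier proteins. The fatty acid binding proteins (FABPs) are barrel-shaped cytosolic carriers, each most abundant in certain tissues, which bring fatty acids to membranes, to enzymes and to nuclear receptors. Dbi, also called acyl-CoA binding protein, holds activated fatty acids, and the ACBD proteins join a domain of the same fold to other domains that place them at organelles. PPARα, the nuclear receptor encoded by Ppara, is activated by fatty acids and by fibrates, pairs with RXR, and binds direct repeats of the hexamer AGGTCA in the DNA of its target genes, among which Fabp1 is a textbook case in liver.

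The promoters of 2 genes are shown here because they set the presence of such a repeat beside the array ratios given further on. RefSeq windows of GRCm38.p6, which run from 250 bases before a gene start to 50 bases after it, were used for 5 of the genes (6 windows): Fabp1, Fabp2, Fabp3, Fabp7 and Acbd5. No window was found for Fabp4, Fabp5, Acbd3 and Acbd4. The bases before the outermost start of Fabp1 and Fabp2 follow, 5′ to 3′ on the strand of the gene, with the match to the direct repeat in capitals. The Fabp1 sequence is chr6:71199629-71199878 on the plus strand, and the Fabp2 sequence chr3:122894822-122895071 on the plus strand.
Fabp1: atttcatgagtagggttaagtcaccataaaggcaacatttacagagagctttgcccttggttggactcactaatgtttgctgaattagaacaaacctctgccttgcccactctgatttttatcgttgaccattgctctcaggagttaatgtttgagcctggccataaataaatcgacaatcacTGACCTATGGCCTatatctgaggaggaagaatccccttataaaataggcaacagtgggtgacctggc
Fabp2: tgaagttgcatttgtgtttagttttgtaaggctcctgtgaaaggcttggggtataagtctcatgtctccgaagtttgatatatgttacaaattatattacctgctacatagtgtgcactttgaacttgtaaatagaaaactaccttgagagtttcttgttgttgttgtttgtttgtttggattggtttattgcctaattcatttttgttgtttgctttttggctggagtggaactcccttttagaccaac

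The motif searched was AGGTCA, then 1 base of any kind, then AGGTCA again, on both strands and with up to 2 mismatches at its 12 fixed letters. The Fabp1 window held TGACCTATGGCCT, from 67 to 55 bases before the start, which on the opposite strand reads AGGCCATAGGTCA and differs from the motif at 1 letter. It contains an exact copy of the hexamer AGGTCA on that strand. Matches with at most 1 mismatch were found in 0.554% of all 32851 windows (182), and matches with at most 2 in 3.86% (1268). The Fabp1 window held another AGGTCA hexamer, from 9 to 4 bases before the start, and a TATAAA from 30 to 25 bases before it. None of the other 5 windows, of Fabp2, Fabp3, Fabp7 and Acbd5, held the repeat with up to 2 mismatches. The Acbd5 windows lie at starts other than the outermost. No bases outside the windows were searched, so a repeat elsewhere in these genes would have been missed. The Fabp7 window held 1 exact hexamer, from 171 to 166 bases before the start, on the opposite strand. The hexamer was present in 16.3% of all windows and TATAAA in 13.6%. These matches are letters in a reference sequence, and the arrays measured no binding.

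Each array carries 1 signal per probe set on a linear scale, which the authors scaled to a target of 1000. A floor was set at the median signal of each array over its probe sets other than controls, 287.8 for wild type and 269.4 for null. Lower signals were set to the floor, and log2 ratios were formed as wild type over null, so that a positive ratio is a higher wild-type signal. A gene was represented by its brightest probe set, counted as measured when either array reached its floor, and was called different at 2-fold or more. With 1 array per genotype there is no test, no standard error and no p-value, and no difference below has a replicate check. The only scatter these data hold is that between different probe sets of a gene on the same pair of arrays, with a pooled SD of 0.42 in log2 ratio over 3917 genes, which leaves out differences between mice. The targeted gene gave lower null signals at all 3 probe sets of Ppara, at 42.9%, 50.6% and 36.0% of wild type. The part of Ppara that was disrupted is not stated in the labels.

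Of the 10 genes, 9 were measured, each above the floor on both arrays, and Fabp7 was below the floor on both. Wild-type signals were 2-fold higher or more for Fabp2 and Fabp4, and 0 genes were 2-fold lower or more. Across all 13041 measured genes, 4.99% were at least 2-fold higher and 2.8% at least 2-fold lower, and across the 10060 genes measured on both arrays the higher share was 3.61%. The median of the 9 genes was a log2 ratio of 0.76, or 1.70-fold, beside 0.00 for all measured genes and -0.02 for genes measured on both arrays. Ratios were positive for 8 of the 9 genes, and for 47.8% of all genes measured on both arrays. Thus, by their representing probe sets, Fabp3, Fabp5, Dbi and Acbd5 were higher on the wild-type array by less than 2-fold. The log2 ratios of Fabp1 (0.22), Acbd3 (0.03) and Acbd4 (-0.11) were smaller than the SD of 0.42 between probe sets. Members are not replicates of the genotype, and these counts describe 1 pair of arrays.

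**Figure D1:**
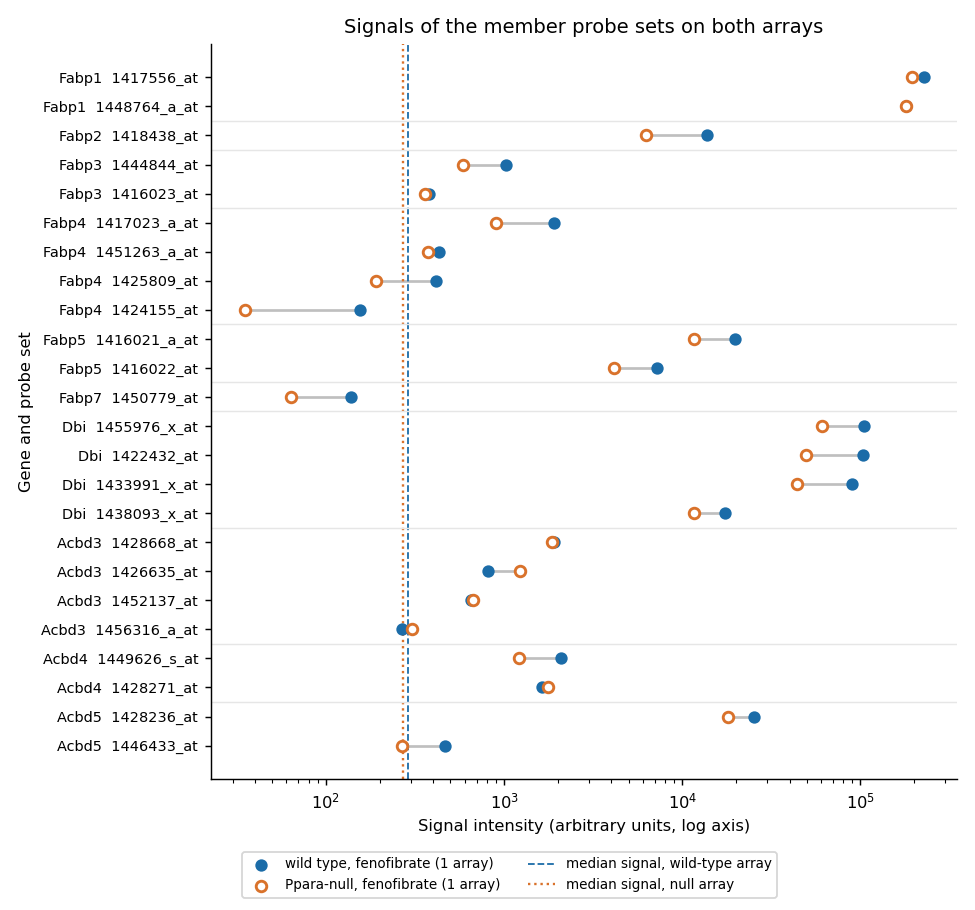
Signal intensity (log axis) of all 24 probe sets of the 10 genes, with a filled point for the wild-type array, an open point for the null array and a grey line between them; the vertical lines are the median signals of the arrays, 287.8 and 269.4. The filled point lies clearly to the right for Fabp2, Fabp5 and Dbi, while both points of Fabp1 nearly coincide and Fabp7 lies left of both lines.

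Fabp1 encodes the liver FABP, the main cytosolic fatty acid carrier of hepatocytes. Its brighter probe set gave 226036 for wild type and 194332 for null, a 1.16-fold difference and a log2 ratio of 0.22. The other probe set gave 179326 and 180068, a log2 ratio of -0.01. Null kept 86.0% and 100.4% of the wild-type signal at the brighter and the other probe set. Both log2 ratios were smaller than the pooled SD of 0.42 between probe sets. That SD comes from 3917 genes on 1 pair of arrays and does not measure the spread of a genotype difference. The mean log2 ratio of the 2 probe sets was 0.11 ± 0.16 (SD over probe sets, n = 2).

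These Fabp1 signals lay close to the top of the range of both arrays, whose highest signals were 234616 in wild type and 269000 in null. By mean log2 signal the Fabp1 probe sets stood at rank 7 and rank 11 of 45037. Among the 100 brightest probe sets, a number chosen after the values were seen, the median log2 ratio was -0.22, the middle 90% ran from -0.50 to 0.08, and 2 probe sets reached a 2-fold higher wild-type signal. The ratio of the brighter Fabp1 probe set was exceeded by 3 of these 100 and that of the other by 12. Among the 200 brightest they were exceeded by 17 and 49, with a median of -0.20, and among the 500 brightest by 82 and 191, with a median of -0.09. The position of Fabp1 among bright probe sets thus depended on how many were taken. Acaa1b, a peroxisomal thiolase gene, had the largest ratio of the 100, at 1.78. Whether signals of this size were still proportional to RNA amount was not tested. After loess removal of the trend of the ratio with signal, the log2 ratio of Fabp1 was 0.26, and after quantile normalization 0.31.

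**Figure D2:**
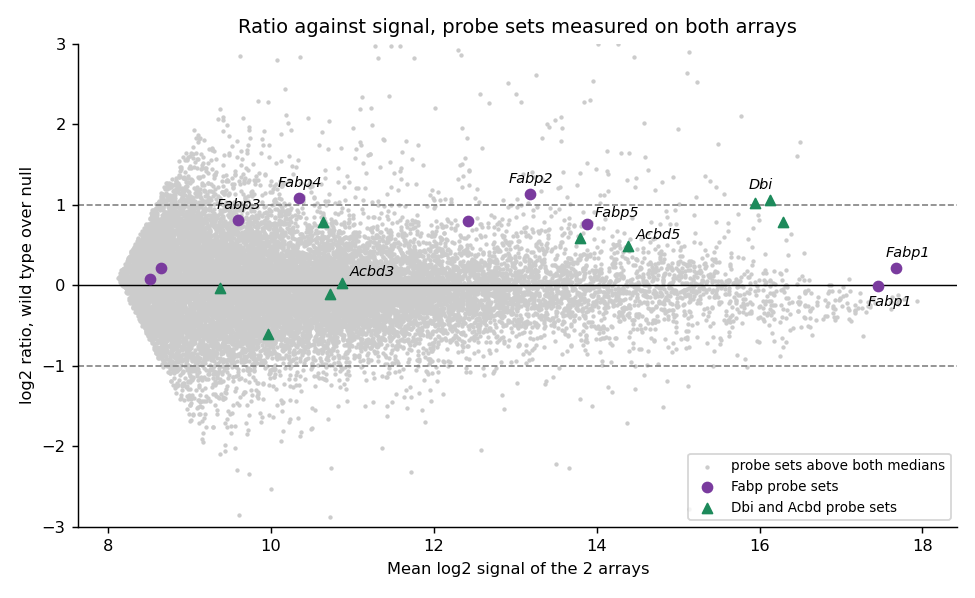
Log2 ratio of wild type over null against the mean log2 signal of the 2 arrays, for the 18448 probe sets that reach both floors (grey; 21 lie beyond the axis), with FABP probe sets as circles and Dbi and Acbd probe sets as triangles; dashed lines mark 2-fold. At the right end the cloud drops below 0, with Fabp1 at 0.22 and -0.01 and 3 of the Dbi triangles between 0.79 and 1.06.

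Fabp2 encodes the intestinal FABP, best known from the enterocyte and also present in liver. Its only probe set gave 13829 for wild type and 6285 for null, a 2.20-fold difference and a log2 ratio of 1.14. This was the largest ratio of the 9 genes, and a larger one was found for 250 (2.49%) of the 10060 genes that reach both floors. Of 5 enterocyte markers with a probe set named here (markers without one were not analysed), Vil1, Lct and Cdh17 were below the floor on both arrays, while Alpi and Cdx2 were above it in wild type only. Cdx2, at 552.8 against 264.2, had a bound of at least 2.05-fold. Of these 5 markers 0 were above the floor on both arrays, and their signals summed to 1246 in wild type and 785.2 in null. Below the floor, Lct gave 118.1 in wild type and 185.3 in null, Vil1 139.2 and 39.7, and Cdh17 28.3 and 28.9. The part of enterocyte RNA in the Fabp2 difference was not tested.

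Fabp4, the FABP of adipocytes, macrophages and capillary endothelium, was 2.13-fold higher at its brightest probe set, with 1907 in wild type and 896.4 in null. The other 3 Fabp4 probe sets were dim. The second gave 433.7 and 374.9, a log2 ratio of 0.21. The third gave 412.9 and 190.9, with null under the floor and a bound of at least 1.53-fold. The fourth, at 155.1 and 35.0, was under the floor on both arrays. The 2-fold call of Fabp4 thus rested on 1 probe set, and the log2 ratios of its 2 probe sets above both floors averaged 0.65 ± 0.62 (SD over probe sets, n = 2). With the median over its probe sets the log2 ratio was 0.62, and after median centring it was 0.99, just under 2-fold.

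Markers of the cell types that carry Fabp4 had ratios of both signs. Of 5 adipocyte markers on the array, Adipoq, Retn, Lep and Cidec were below the floor on both arrays, and the fifth, Pck1, which hepatocytes also express, gave 37372 in wild type and 58894 in null. The 5 signals summed to 37745 and 59306, nearly all of it from Pck1. Of 8 macrophage and Kupffer cell markers 7 were measured, 6 of them with a negative ratio, and the sums were 16197 and 21212. Of 7 endothelial markers, all measured, 3 had a positive and 4 a negative ratio, with sums of 13319 and 14370. Pecam1 was at least 2.36-fold higher in wild type, at 636.9 against a null signal of 228.0 under the floor. The medians of the macrophage and endothelial lists, -0.31 and -0.09, turned positive after scaling to the hybridization controls (0.07 and 0.29). In a whole liver, fewer cells of a type and less RNA per cell cannot be told apart.

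Fabp5, the epidermal FABP, which is also expressed in macrophages and endothelium, gave 19714 in wild type and 11610 in null at the brighter probe set. The other probe set gave 7215 and 4160. The ratios were 1.70-fold and 1.73-fold, and their mean log2 value was 0.78 ± 0.02 (SD over probe sets, n = 2), the closest agreement between probe sets of any member with more than 1 above both floors. The gene stayed under 2-fold, and 701 of 10060 genes had a larger ratio. The macrophage and endothelial marker values given for Fabp4 apply here too.

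Fabp3, the FABP of heart and skeletal muscle, was dim. The brighter probe set gave 1030 in wild type and 585.5 in null (1.76-fold). The other gave 376.7 and 357.5 (1.05-fold), which is 1.31 and 1.33 times the floors, and its null signal lay under the brightest Bacillus control probe set of that array (422.4), for which no RNA of the mouse is a target. The probe sets did not agree in size, with a mean log2 ratio of 0.45 ± 0.52 (SD over probe sets, n = 2). Of 6 striated muscle markers, Myh6, Myl2 and Mb were below the floor on both arrays, and Acta1 was at least 4.54-fold higher in wild type (1224 against 229.7). Ckm gave 421.8 and 308.0 (1.37-fold), and Tnnt2 gave 161.9, under the floor, in wild type and 285.9 in null. The 6 signals summed to 2153 and 1134, with most of the wild-type sum from Acta1. The part of muscle RNA in the Fabp3 values was not tested.

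Fabp7, the brain FABP, was below the floor on both arrays, at 138.4 in wild type and 64.0 in null, and no ratio is given for it. Of the 4 glial markers on the array 0 were above the floor on both arrays, and their signals summed to 1547 and 1311. Their ratios were positive for 2 and negative for 2, with Mbp at 757.1 in wild type against 241.9 in null and Gfap at 246.5 against 511.0.

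Dbi was higher in wild type at all 4 of its probe sets. Its brightest probe set gave 104988 in wild type and 60872 in null, and the next gave 103880 and 49674. The third gave 89470 and 44043, and the dimmest gave 17470 and 11611. Wild-type signals were higher throughout, with log2 ratios of 0.79, 1.06, 1.02 and 0.59 in this order. The mean log2 ratio was 0.87 ± 0.22 (SD over probe sets, n = 4), a difference that was positive in 4 of 4 probe sets. The brightest probe set represents the gene, so Dbi was not among the genes called at 2-fold. The brightest, the third and the dimmest probe sets are of the type _x_at, whose probes may also match other transcripts. Without probe sets of the types _x_at and _s_at the gene rested on the remaining probe set alone. It was then 2.09-fold higher and called. A ratio above the 0.79 of the brightest probe set was found for 650 of the 10060 genes.

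The ACBD genes differed less. Acbd5, whose product sits in the peroxisomal membrane and tethers peroxisomes to the endoplasmic reticulum, gave 25419 for wild type and 18151 for null, a 1.40-fold difference. Its second probe set gave 464.0 and 268.8, the latter just under the floor, with a bound of at least 1.72-fold. Both probe sets of Acbd5 thus had the higher signal in wild type, and the size of the difference at the second is a bound only.

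Acbd4, which encodes a further peroxisomal membrane protein with an acyl-CoA binding domain, had probe sets that disagreed in direction. The brighter by mean log2 signal gave 1634 in wild type and 1763 in null (log2 ratio -0.11), and the other gave 2094 and 1210 (0.79). The mean was 0.34 ± 0.64 (SD over probe sets, n = 2), and the direction of Acbd4 depended on the probe set chosen. By its representing probe set Acbd4 was the only member with a negative ratio, and this turned positive under the scaling to hybridization controls (0.27) and when its probe sets were summarised by their median (0.34).

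Acbd3, a Golgi protein that recruits a phosphatidylinositol 4-kinase, was nearly equal at 3 of its 4 probe sets. The brightest gave 1896 in wild type and 1861 in null, and the third gave 655.5 and 670.3. The second gave 807.1 and 1230, a 1.52-fold higher null signal, and the dimmest gave 267.7 and 302.8, with wild type under the floor. The 3 probe sets above both floors had a mean log2 ratio of -0.20 ± 0.35 (SD over probe sets, n = 3). The representing ratio of 0.03 changed sign under median centring and when its probe sets were summarised by their median.

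**Figure D3:**
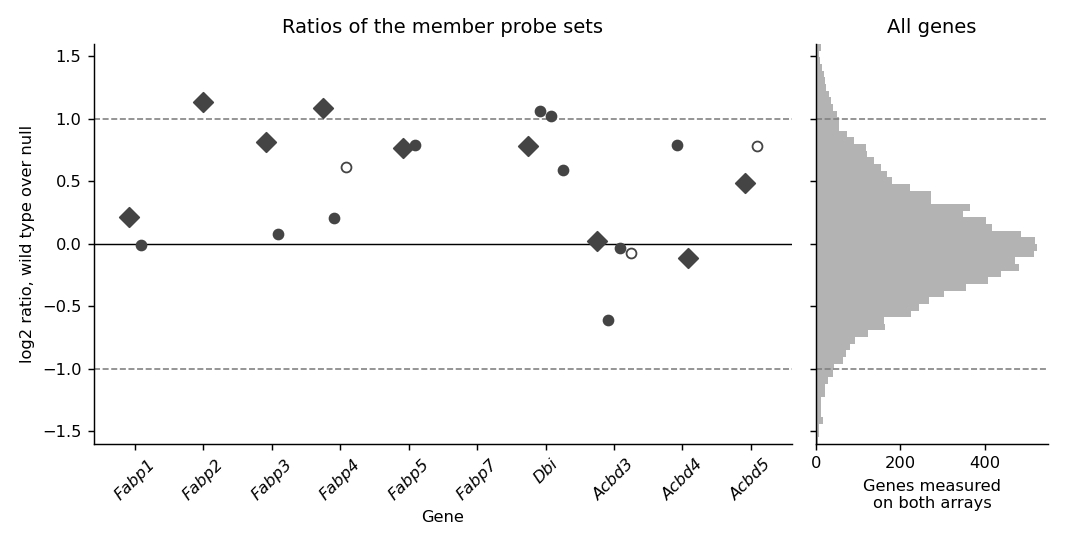
Left, log2 ratio of wild type over null for each member probe set above the floor on at least 1 array (diamond, the probe set that represents the gene; open circle, above the floor on 1 array only); right, the distribution over the 10060 genes measured on both arrays, of which 115 lie beyond the axis, with dashed lines at 2-fold. Fabp2 (1.14), Fabp4 (1.09) and 2 Dbi probe sets (1.06 and 1.02) lie above the upper line, no member lies below the lower line, and the probe sets of Acbd4 fall on both sides of 0.

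By probe set, 22 of the 24 were above the floor on at least 1 array and 19 on both. Of the 19, 4 were higher by 2-fold or more (Fabp2, Fabp4 and 2 of Dbi) and 0 lower, beside 3.32% higher among all 18448 such probe sets. Positive ratios were found for 15 of the 19, and for 47.8% of the 18448. The 5 measured FABP genes had a median log2 ratio of 0.81 with a range from 0.22 to 1.14, and the 4 acyl-CoA binding genes had a median of 0.26 with a range from -0.11 to 0.79. The FABP median is the ratio of the brighter Fabp3 probe set, and the other Fabp3 probe set gave 0.08. With probe sets summarised by their median, Fabp3 was at 0.45, Fabp4 at 0.62 and Acbd4 at 0.34. The distance between the 2 family medians thus depends on the probe sets chosen. The ranges overlap, and probe sets of the same gene share its transcript and are not independent.

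Other genes of both families and of the steps around them were read from fixed lists. Of 8 other genes of the FABP and retinoid carrier family on the array, 7 were below the floor on both arrays, among them the ileal bile acid carrier gene Fabp6, and the eighth, Fabp12, gave 400.8 in wild type and 465.1 in null. Of 8 other genes with an acyl-CoA binding or sterol carrier domain 6 were measured, 4 of them on both arrays. Of the 6, 3 were higher by 2-fold or more and 0 lower, beside 4.99% and 2.8% of all measured genes. These were Eci2, a peroxisomal enoyl-CoA isomerase with an acyl-CoA binding domain (5.83-fold; 38236 against 6563), Hsd17b4, the peroxisomal bifunctional enzyme with a sterol carrier domain (3.01-fold), and Acbd6, an acyl-CoA binding protein with ankyrin repeats (2.48-fold). The second probe set of Acbd6 went the other way, with 285.1 in wild type, under the floor, and 652.3 in null, so its direction is uncertain. The list median was 0.77, and over 10 alternatives it ran from 0.15, with probe sets summarised by their median, to 1.40, under the 75th percentile floor, with 5 of the 10 at 1 or more. Scp2, the sterol carrier protein itself, gave 138595 and 145182, with log2 ratios from -0.28 to 0.62 over its 4 probe sets.

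Of 12 measured genes of fatty acid uptake and activation, 2 were higher by 2-fold or more and 0 lower. The shares of all measured genes were 4.99% and 2.8%. The list median was a log2 ratio of 0.29. The 2 higher genes were the fatty acid translocase Cd36 (17.8-fold) and the acyl-CoA synthetase Acsl5 (2.47-fold). Slc27a5, the bile acyl-CoA synthetase and fatty acid transport protein, was lowest at -0.39. A list of well known PPARα targets had 12 measured genes: the enzyme genes Acaa1b, Acadl, Acadm, Acot1, Cpt1a, Cpt2, Cyp4a14, Ehhadh, Pdk4 and Vnn1, the acylcarnitine carrier gene Slc25a20 and the lipid droplet coat gene Plin2. Of these, 10 were at least 2-fold higher, beside 4.99% of all measured genes, and the 12 had a median log2 ratio of 2.10. The largest member ratio, 1.14 for Fabp2, lay below that median and above the ratios of 2 of these 12 genes, Acadm and Cpt1a. The labelled tissue was borne out by hepatocyte markers, of which all 7 on the array were above the floor on both arrays. By its representing probe set each of these 7 had a negative ratio, with a median of -0.22. The other probe set of Apob gave 0.09. The median was -0.07 after quantile normalization and 0.16 after scaling to the hybridization controls. Of 6 stellate cell markers 5 were measured, with a median of -0.32, and of 4 cholangiocyte markers 3 were measured, each on 1 array only.

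**Figure D4:**
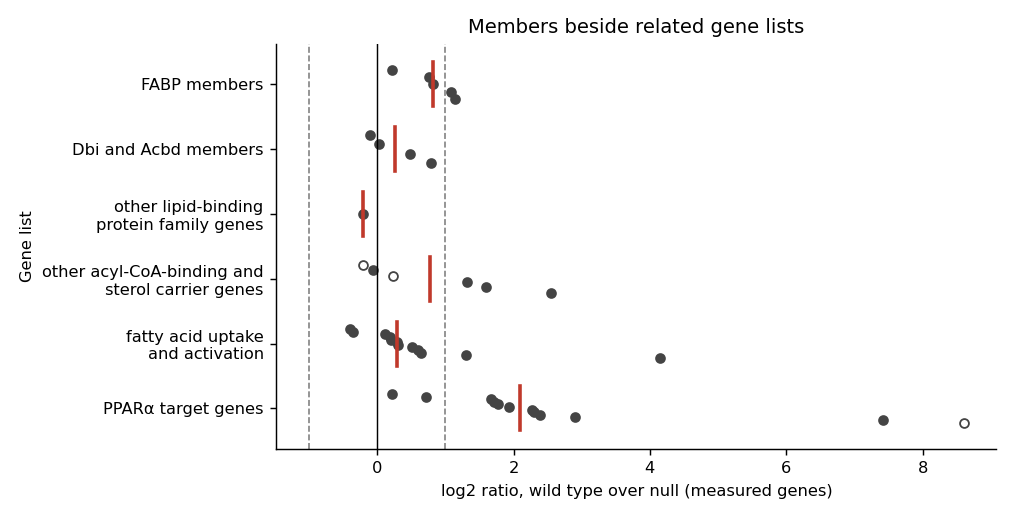
Log2 ratio of wild type over null of the measured genes of each list, with 1 point per gene (open, above the floor on 1 array only, a bound), a red bar at the list median and dashed lines at 2-fold. The FABP members lie between 0.22 and 1.14 and the Dbi and Acbd members between -0.11 and 0.79, while the PPARα target genes have a median of 2.10.

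The direction of these ratios is relative to the deposited scaling. The 18 hybridization control probe sets, made from transcripts added to each sample in fixed amounts, had a median log2 ratio of -0.38, and scaling to them raised every ratio by that amount. Fabp2, Fabp3, Fabp4, Fabp5 and Dbi then passed the 2-fold threshold, as did 1759 of all 13041 measured genes, and Fabp1 had a log2 ratio of 0.60. Under that scaling the median of all measured genes was 0.38, so relative to it the members stood where they stood before. Median centring, which lowered every ratio, left Fabp2 alone at 2-fold or more. Fabp2 stayed at 2-fold or more under all 10 alternatives other than thresholds, with log2 ratios from 1.04 to 1.52.

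**Figure D5:**
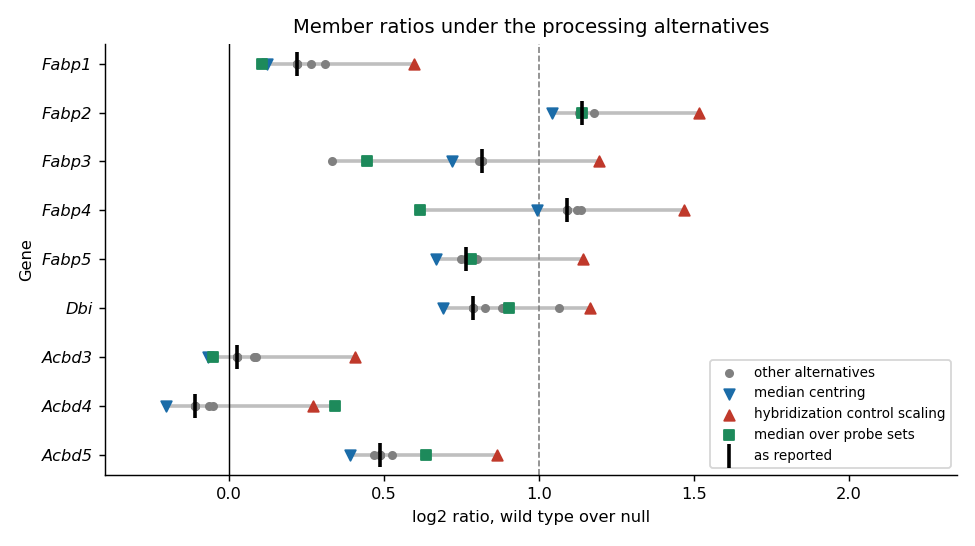
Log2 ratio of wild type over null of the 9 measured genes as reported (black bar) and under 10 processing alternatives, 3 of them with their own marker; the solid line is at 0 and the dashed line at 2-fold. The points of Fabp2 lie right of the dashed line (1.04 to 1.52), those of Fabp1 between 0.11 and 0.60, and those of Acbd3 and Acbd4 on both sides of 0. Only the scalings could move Fabp2, which has 1 probe set far above the floors.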

How the data were processed

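The deposited values are linear signal intensities, 1 for each probe set on each array. The authors summarised and scaled them with the statistical algorithm of Affymetrix, to a target of 1000 over all probe sets, per the labels. The mean without the lowest and highest probe sets was 1000.01 on both arrays. The sources used here do not give the software version, detection calls or genome build. Gene symbols came from the platform annotation of 2016, and the identifiers of all 10 members matched RefSeq (GRCm38.p6). Of 45037 probe sets other than the 64 controls, 932 with several symbols and 9160 unnamed here stayed out of gene values.

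Floors, log2 ratios and 2-fold calls were computed in Python 3.11.15 with pandas 2.3.3 and numpy 2.4.6, loess with statsmodels 0.14.6, and the procedure was tested on simulated data. All members were named with all probe sets. Of the other lists, members at least 2-fold apart were named, at most the 3 largest in each direction, and a few further genes were named after their values were seen. The members and lists were chosen with earlier results of these data known. Promoter windows were read from RefSeq tables and matched by symbol; that of Dbi is not reported here. Alternatives were 4 scalings, 4 floors, 2 rules for the probe sets of a gene, and thresholds of 1.5-fold and 3-fold. The number of arrays, 1 per genotype, limits the precision.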

Additional observations from a re-analysis of the deposited data

How the results depend on the processing

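Of the 10 members, 2 were higher in wild type by 2-fold or more as reported. That count was 1 under median centring and when probe sets were summarised by their median (Fabp2), 5 after scaling to the hybridization controls and at a 1.5-fold threshold (Fabp2, Fabp3, Fabp4, Fabp5 and Dbi), and 0 at a 3-fold threshold. It was 3 with no floor, where Fabp7 joined with both signals under the floor, and 3 without probe sets ending in _x_at or _s_at, where Dbi joined. It stayed at 2 under quantile normalization, loess, and floors at the 25th percentile, the 75th percentile and the brightest Bacillus controls (316.5 in wild type, 422.4 in null). The count of members at least 2-fold lower was 0 under all 12 alternatives. The median of the measured members ran from 1.14, under the control scaling, down to 0.49, under the 75th percentile floor. With that floor Fabp3 had a log2 ratio of 0.33. Over all genes the higher and lower counts ran from 132 and 58 at 3-fold to 3096 and 2177 without a floor. These were among 13041 and 18193 measured genes. Of 13041 genes, 651 were higher and 365 lower as reported, 507 and 507 after median centring, and 1759 and 109 under the control scaling. With floors at the Bacillus controls they were 297 and 303 of 11725. At 1.5-fold 1925 of 13041 genes were higher. Higher calls were 573 of 13044 under quantile normalization and 584 of 13031 under loess. With floors at the 25th and 75th percentiles they were 2336 of 16723 and 157 of 7392. They were 547 of 13163 with probe sets summarised by their median and 621 of 12643 without _x_at and _s_at probe sets. No paired analysis was possible because each genotype has 1 array. Signal over background limits Fabp3, the dimmer Fabp4 probe sets and Fabp7, and 1 array per genotype limits every value.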
